A study of Homo sapiens with 8 samples.

Results

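This account covers 31 human genes that encode the enzymes of the tricarboxylic acid (TCA) cycle, the malate-aspartate shuttle and the enzymes and carriers through which pyruvate, glutamate, citrate and malate enter or leave the cycle. They were chosen by symbol from a list of pathway genes, and the rule used no measured value, although earlier results of these data were known when the list was drawn up. All 31 were found among the 61517 genes of the count table, and all 31 were among the 15554 genes that passed the filter on low counts. The cells were KYSE150, an established line of human esophageal squamous cell carcinoma, and messenger RNA enriched by its poly(A) tail was sequenced in 8 libraries. Each of 4 groups held 2 libraries: normoxia, hypoxia, hypoxia plus sodium oxamate, and hypoxia plus oxamate plus NALA. NALA is a short name in the labels, taken here to be sodium lactate because the treatment protocol names that agent. Oxamate is an inhibitor of lactate dehydrogenase. All groups were the same line, grown in RPMI-1640 with fetal bovine serum and antibiotics. The sources used here give no oxygen level, dose or duration. They do not say whether replicate libraries were grown as separate cultures, so p-values measure only the spread between libraries, which may be technical.

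The TCA cycle oxidises acetyl groups in the mitochondrial matrix and passes the electrons to the respiratory chain. The malate-aspartate shuttle carries the reducing power of cytosolic NADH into the matrix, through a malate dehydrogenase and an aspartate aminotransferase on each side of the inner membrane and a pair of exchange carriers. Lactate dehydrogenase is the other main route by which cytosolic NADH is reoxidised. In hypoxic cells HIF-1 is known to lower the use of pyruvate by the mitochondria, partly through the kinase PDK1, and glutamine then becomes a larger source of cycle carbon.

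The libraries held between 21845676 and 29406061 counts. Levels are given as CPM, the counts relative to library size, scaled by the trimmed mean of M-values (TMM). A gene is called higher or lower at an adjusted p under 0.05 in edgeR's quasi-likelihood test, and differences are log2 fold changes ± standard error. The hypoxia-induced genes CA9, NDRG1 and PDK1 were 5.26, 7.65 and 2.03 higher in hypoxia than in normoxia on the log2 scale, and changed by -4.93, -4.21 and -0.59 when oxamate was added. Summed squamous markers stood at 2798 to 4262 CPM of the library totals, summed leukocyte markers at 0.0855 to 2.11 and summed fibroblast and endothelial markers at 1.29 to 10.96. MS4A1, COL3A1 and DCN had 0 counts in all 8 libraries. Other markers of those lists had some, such as COL1A1 at 16 to 230 counts, CDH5 at 8 to 35 and CD3E at 1 to 29.

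The members took up 0.399% and 0.398% of all counts in normoxia, 0.365% and 0.363% in hypoxia alone, 0.490% and 0.488% with oxamate, and 0.404% and 0.405% with NALA added. These shares use no scaling factor. They were lowest in hypoxia and highest with oxamate, and the groups did not overlap. MDH2, GOT2, CS and GLUD1, the 4 most abundant members, made up 38.8% to 38.9% of the members' counts in normoxia, 32.7% in hypoxia, 46.2% to 46.4% with oxamate and 45.2% to 45.6% with NALA. Without those 4 genes the share of the library was 0.244% in normoxia, 0.244% to 0.246% in hypoxia, 0.262% to 0.264% with oxamate and 0.221% to 0.222% with NALA. Without the 4 abundant genes, normoxia and hypoxia thus overlapped. Per kilobase of exon in normoxia, MDH2 stood highest at 133 CPM and GOT2 next at 95.2, while PC stood lowest at 2.95 and ME2 next at 4.04.

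**Figure D1:**
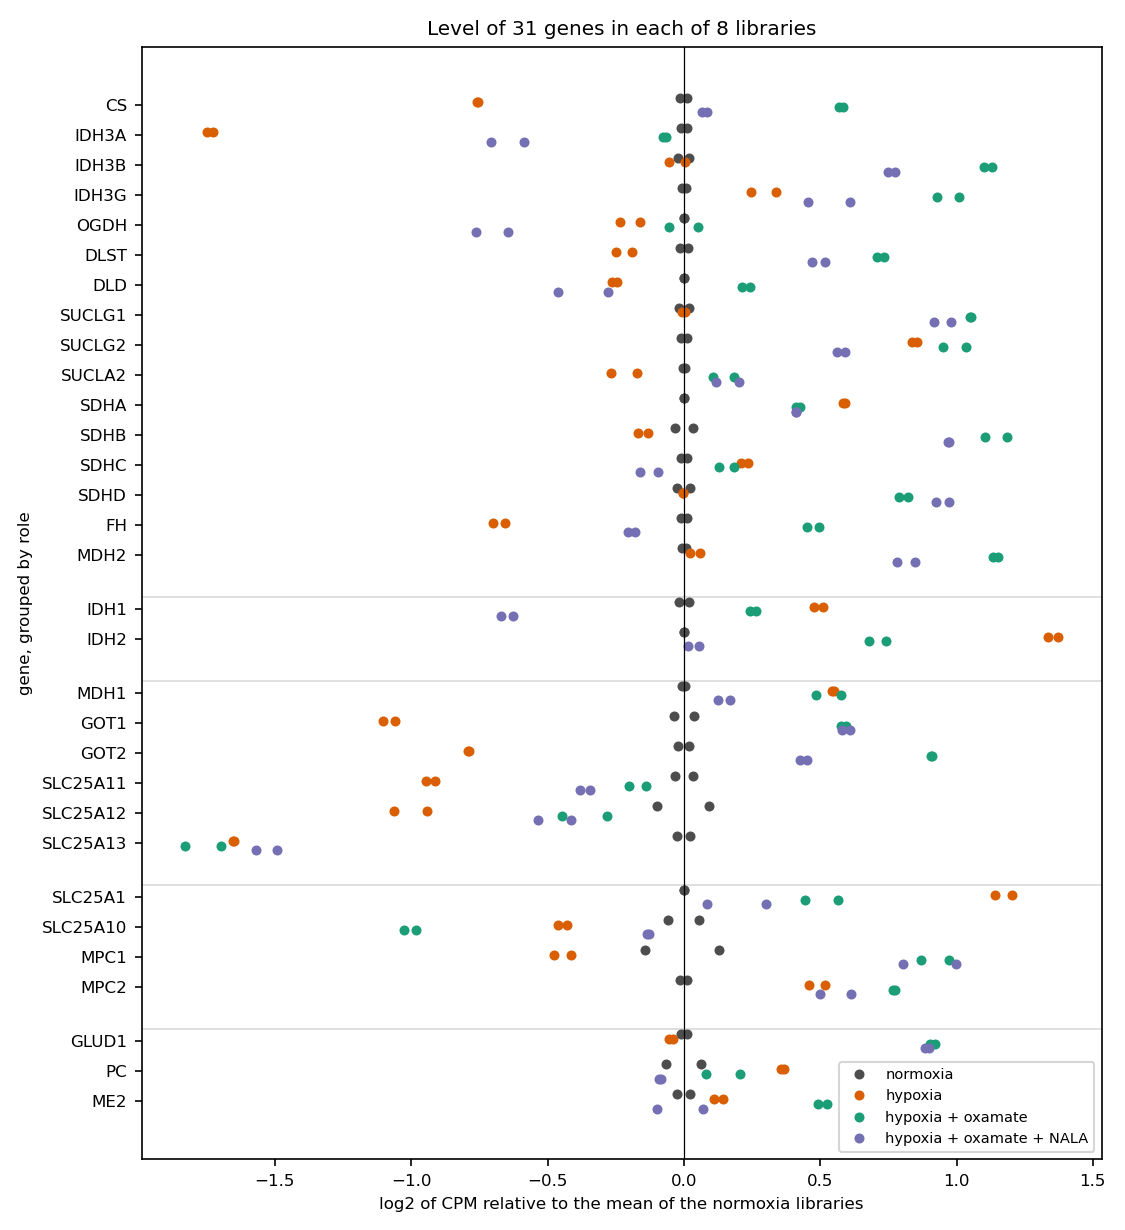
Level of each of the 31 genes in each of the 8 libraries, as log2 of TMM-scaled CPM relative to the mean of the normoxia libraries (horizontal axis), with genes in rows grouped by role. Points of 1 colour are the 2 libraries of a group: the hypoxia points of IDH3A, GOT1 and SLC25A13 lie more than 1 log2 unit to the left, and those of IDH2 and SLC25A1 more than 1 to the right.

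The first comparison asked how hypoxia changed these messages. In hypoxia 11 of the 31 genes were higher than in normoxia, 15 were lower and 5 were not called. Of all 15554 genes tested, 36.7% were higher and 36.8% lower. Among the 7430 tested genes within the members' range of abundance, 49.9% were lower, close to the 48.4% of the members. The median change of the members was -0.05 beside 0.02 over all genes. With upper quartile scaling, which moves the median of all genes by 0.10, the counts were 14 higher and 12 lower. The set therefore had no common direction, and its roles are described separately.

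In the shuttle 5 of 6 genes were lower in hypoxia, the largest share of any role, with a median of -0.97. This count leaves out MDH2, the shuttle's mitochondrial malate dehydrogenase, which is grouped with the cycle enzymes and was not called (0.04). SLC25A13, one of the 2 aspartate-glutamate carriers, stood at 60.8 and 58.8 CPM in normoxia, 19.0 and 19.0 in hypoxia alone, 16.8 and 18.5 with oxamate, and 21.3 and 20.2 with NALA. Only the normoxia libraries were high, and hypoxia was 3.14-fold lower (-1.65 ± 0.062, adjusted p 2.95e-16 in edgeR). SLC25A12, its paralog, stood at 40.2 and 35.3 CPM in normoxia, 19.7 and 18.1 in hypoxia alone, 31.1 and 27.7 with oxamate and 28.4 and 26.1 with NALA, and fell by 0.998 ± 0.079 in hypoxia. Unlike SLC25A13, it was higher with oxamate than in hypoxia, by 0.64 ± 0.082.

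GOT1, the cytosolic aspartate aminotransferase, stood at 75.5 and 79.4 CPM in normoxia, 37.1 and 36.0 in hypoxia alone, 116 and 117 with oxamate, and 118 and 116 with NALA. GOT2, the mitochondrial form, stood at 364 and 353 CPM in normoxia, 207 and 208 in hypoxia alone, 672 and 674 with oxamate, and 490 and 482 with NALA. Both were lowest in hypoxia and above normoxia with oxamate. With NALA GOT2 came down, while GOT1 did not with TMM scaling but was called lower with upper quartile scaling (-0.18). In hypoxia GOT1 fell by 1.08 ± 0.046 (adjusted p 2.78e-15 in edgeR) and GOT2 fell by 0.79 ± 0.030. The oxoglutarate-malate carrier SLC25A11 fell by 0.93 ± 0.049. MDH1, the cytosolic malate dehydrogenase, was the shuttle gene that went the other way in hypoxia: it stood at 127 and 128 CPM in normoxia, 186 and 186 in hypoxia alone, 190 and 178 with oxamate, and 143 and 139 with NALA. It rose by 0.55 ± 0.037 in hypoxia.

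Of the 16 cycle enzymes, 4 were higher in hypoxia, 8 lower and 4 not called. IDH3A, the catalytic subunit of the NAD-linked isocitrate dehydrogenase, had the lowest fitted change of the 31. It stood at 102 and 101 CPM in normoxia, 30.7 and 30.2 in hypoxia alone, 97.2 and 96.4 with oxamate, and 62.2 and 67.7 with NALA. Hypoxia was 3.34-fold lower (-1.74 ± 0.049, adjusted p 1.72e-18 in edgeR), while the partner subunits IDH3B (-0.03 ± 0.038, not called) and IDH3G (0.29 ± 0.059, higher) did not fall.

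CS, citrate synthase, which makes citrate from oxaloacetate and acetyl-CoA, stood at 295 and 290 CPM in normoxia, 173 and 173 in hypoxia alone, 434 and 438 with oxamate, and 311 and 306 with NALA. It fell by 0.76 ± 0.031 in hypoxia, and FH, fumarate hydratase, fell by 0.68 ± 0.043. The 3 genes of the oxoglutarate dehydrogenase complex were also lower, by smaller amounts: OGDH at -0.20, DLST at -0.22 and DLD at -0.25. The OGDH call was lost with upper quartile scaling (-0.09, adjusted p 0.0857 in edgeR). MDH2, the mitochondrial malate dehydrogenase, stood at 483 and 488 CPM in normoxia, 506 and 493 in hypoxia alone, 1079 and 1065 with oxamate, and 836 and 875 with NALA, and was not called in hypoxia (0.04 ± 0.030, adjusted p 0.222 in edgeR). It was called higher with upper quartile scaling (0.15, adjusted p 0.000193 in edgeR) and with the stricter count filter (0.085, adjusted p 0.0114 in edgeR).

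Subunits of 1 enzyme did not move together in hypoxia. Succinate dehydrogenase, which is both a cycle enzyme and complex II of the respiratory chain, had the catalytic subunit SDHA (0.59 ± 0.033) and the membrane subunit SDHC (0.22 ± 0.041) higher, the iron-sulfur subunit SDHB (-0.15 ± 0.042) lower and the membrane subunit SDHD (0.00 ± 0.036) not called. The SDHB call was lost without normoxia replicate 2, at -0.11 and an adjusted p of 0.0828 in edgeR, and with upper quartile scaling, at -0.046 and 0.348. Of the alternative beta subunits of succinate-CoA ligase, SUCLG2 (GTP-forming) stood at 50.03 and 49.31 CPM in normoxia, 89.8 and 88.7 in hypoxia alone, 95.9 and 102 with oxamate, and 74.7 and 73.3 with NALA, and rose by 0.85 ± 0.045 in hypoxia. SUCLA2 (ATP-forming) stood at 57.7 and 57.9 CPM in normoxia, 48.1 and 51.3 in hypoxia alone, 65.7 and 62.2 with oxamate, and 66.5 and 62.7 with NALA, and fell by 0.22 ± 0.051, a call lost with upper quartile scaling (-0.11, adjusted p 0.0529 in edgeR). The shared alpha subunit SUCLG1 was not called (0.00 ± 0.041). With upper quartile scaling SUCLG1 and SDHD were called higher, at 0.104 and 0.103, and with library totals alone IDH3B and GLUD1 were called lower, at -0.093 and -0.115.

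The NADP-linked isocitrate dehydrogenases, which can also run from oxoglutarate towards isocitrate, were both higher in hypoxia. IDH2, the mitochondrial form, stood at 58.3 and 58.2 CPM in normoxia, 151 and 147 in hypoxia alone, 93.3 and 97.3 with oxamate, and 58.9 and 60.5 with NALA. The rise in hypoxia was the largest among the members (2.56-fold, 1.36 ± 0.041, adjusted p 6.76e-18 in edgeR), and the NALA libraries lay just above the normoxia libraries. IDH1, the cytosolic form, stood at 158 and 154 CPM in normoxia, 222 and 216 in hypoxia alone, 184 and 187 with oxamate, and 101 and 97.8 with NALA. It rose by 0.49 ± 0.034 in hypoxia and was lowest in the NALA libraries.

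SLC25A1, the carrier that exports citrate from the mitochondria, stood at 56.2 and 56.2 CPM in normoxia, 130 and 124 in hypoxia alone, 83.2 and 76.5 with oxamate, and 59.6 and 69.2 with NALA. It rose 2.26-fold in hypoxia (1.17 ± 0.057, adjusted p 3.41e-12 in edgeR). The dicarboxylate carrier SLC25A10 went the other way, at 32.9 and 35.5 CPM in normoxia, 24.8 and 25.4 in hypoxia alone, 17.3 and 16.8 with oxamate, and 31.2 and 31.3 with NALA. The 2 subunits of the mitochondrial pyruvate carrier parted. MPC1 stood at 12.7 and 15.3 CPM in normoxia, 10.5 and 10.0 in hypoxia alone, 25.5 and 27.4 with oxamate, and 24.4 and 27.9 with NALA, and fell by 0.45 ± 0.102 in hypoxia. MPC2 stood at 31.1 and 31.6 CPM in normoxia, 44.9 and 43.1 in hypoxia alone, 53.3 and 53.7 with oxamate, and 44.3 and 48.0 with NALA, and rose by 0.49 ± 0.056.

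Of the enzymes that fill or drain the cycle, pyruvate carboxylase (PC), which makes oxaloacetate from pyruvate, rose by 0.36 ± 0.076 in hypoxia. GLUD1, glutamate dehydrogenase, which turns glutamate into oxoglutarate, was not called: it stood at 208 and 211 CPM in normoxia, 202 and 204 in hypoxia alone, 391.6 and 396.9 with oxamate, and 391 and 387 with NALA. The mitochondrial malic enzyme ME2 was called higher (0.13 ± 0.050, adjusted p 0.0245 in edgeR), and this call was lost with DESeq2 (adjusted p 0.0933) and without normoxia replicate 2, hypoxia replicate 1 or hypoxia replicate 2, at adjusted p of 0.143, 0.131 and 0.0525 in edgeR.

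**Figure D2:**
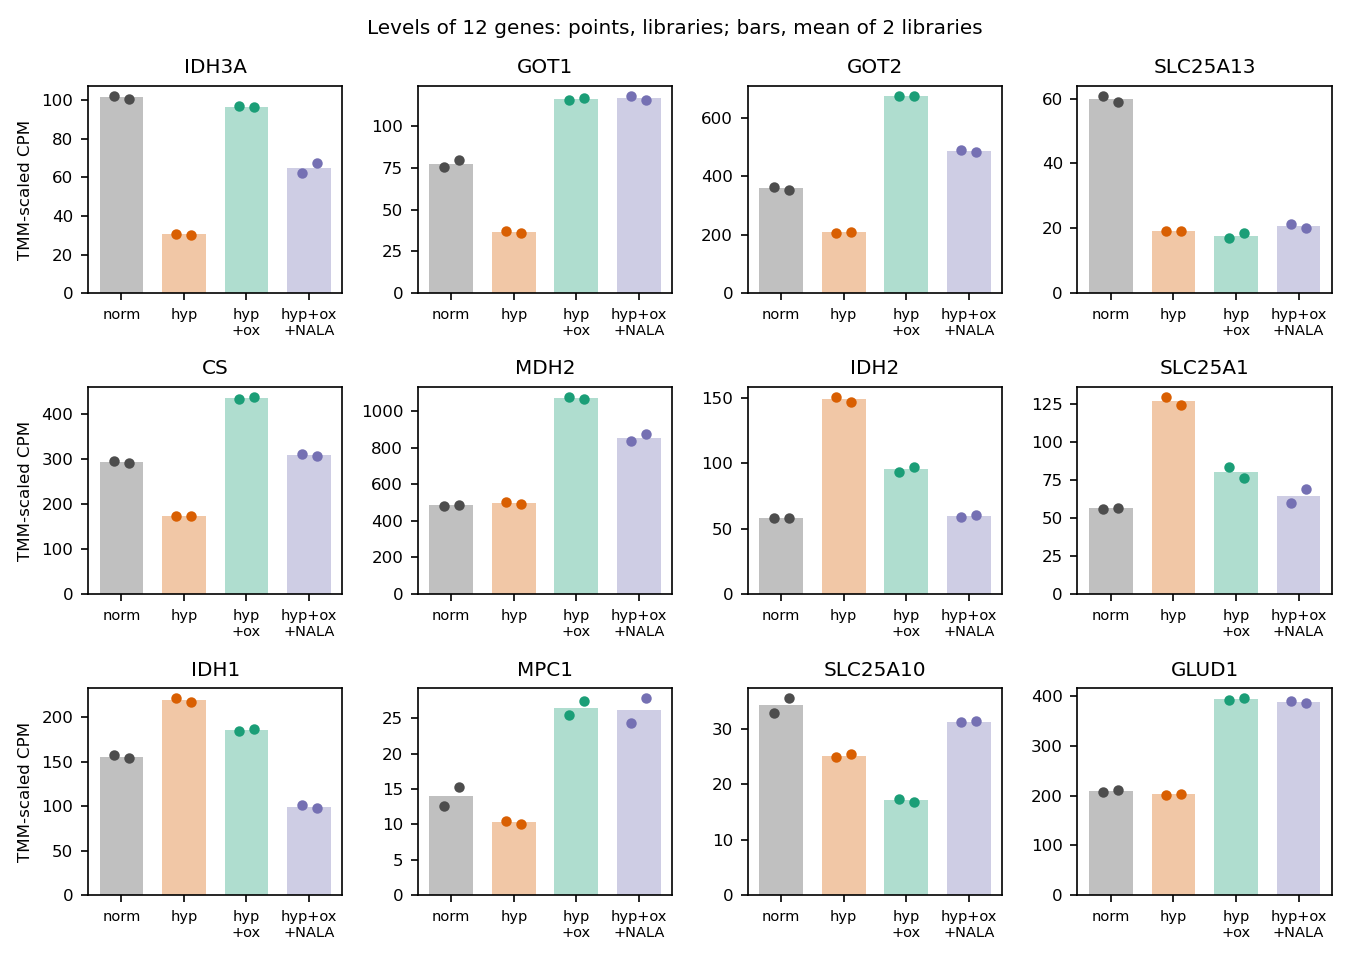
TMM-scaled CPM of 12 of the genes (vertical axes, each from 0) in the 4 groups; bars are means of 2 libraries and points are the libraries. IDH3A, GOT1, GOT2 and CS are lowest in hypoxia, IDH2 and SLC25A1 are highest there, and SLC25A13 is high in normoxia alone.

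Promoter sequence is shown for the 3 genes with the largest decreases and the 2 with the largest increases in hypoxia. HIF-1 is known to bind the core ACGTG or GCGTG, so both were searched on both strands in the 250 bases before the RefSeq start (build GRCh38.p14), in which 29 of the 31 genes had an entry. Capitals mark the cores, which read CACGT or CACGC where they lie on the other strand. The windows, each printed in the gene's own direction, are chr7:96322099-96322348 (minus strand), chr15:78149112-78149361 (plus strand), chr10:99430625-99430874 (minus strand), chr15:90100622-90100871 (minus strand) and chr22:19178737-19178986 (minus strand).
SLC25A13: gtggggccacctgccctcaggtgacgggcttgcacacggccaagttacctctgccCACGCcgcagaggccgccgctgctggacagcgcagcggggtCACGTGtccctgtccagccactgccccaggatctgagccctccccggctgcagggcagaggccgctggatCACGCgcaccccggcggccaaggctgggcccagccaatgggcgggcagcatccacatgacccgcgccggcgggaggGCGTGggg
IDH3A: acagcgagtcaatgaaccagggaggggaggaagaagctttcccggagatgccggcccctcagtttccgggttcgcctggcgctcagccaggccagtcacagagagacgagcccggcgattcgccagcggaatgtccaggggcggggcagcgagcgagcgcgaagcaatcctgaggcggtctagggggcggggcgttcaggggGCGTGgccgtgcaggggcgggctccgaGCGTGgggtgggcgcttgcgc
GOT1: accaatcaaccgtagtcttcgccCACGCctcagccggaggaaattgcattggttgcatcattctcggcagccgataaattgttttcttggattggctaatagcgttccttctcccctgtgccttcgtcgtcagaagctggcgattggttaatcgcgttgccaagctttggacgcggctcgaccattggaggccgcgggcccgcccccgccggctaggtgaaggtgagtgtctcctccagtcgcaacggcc
IDH2: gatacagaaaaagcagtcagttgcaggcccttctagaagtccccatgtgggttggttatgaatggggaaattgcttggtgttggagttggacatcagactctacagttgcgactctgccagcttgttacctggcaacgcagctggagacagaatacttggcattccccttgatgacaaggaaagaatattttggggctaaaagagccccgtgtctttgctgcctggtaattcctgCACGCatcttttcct
SLC25A1: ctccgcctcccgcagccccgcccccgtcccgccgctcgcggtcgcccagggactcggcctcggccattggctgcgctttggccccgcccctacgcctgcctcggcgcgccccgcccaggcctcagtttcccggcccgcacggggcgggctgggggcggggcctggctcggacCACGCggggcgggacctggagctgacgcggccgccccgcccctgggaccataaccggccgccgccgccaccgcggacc
SLC25A13 held 5 matches, of which 2 are the strands of 1 CACGTG, while IDH3A held 2 and GOT1, IDH2 and SLC25A1 1 each. GOT1 also held 5 CCAAT boxes on the 2 strands and IDH3A held 0. A core was thus present in genes that fell and in genes that rose. GCGTG was found in 19 of the 29 members (65.5%), in 45.2% of the 10575 promoters of genes with at least 10 counts in 2 libraries and in 31.9% of all 27305 promoters. ACGTG was found in 5 members (17.2%), in 23.3% of those expressed genes and in 18.7% of all. The member windows were 66.2% G or C, beside 64.2% in the expressed genes and 56.9% in all. A match is a string of letters and not a measured binding site. The RefSeq starts of SLC25A13, IDH3A, GOT1, IDH2 and SLC25A1 all lay inside the span that GENCODE gives the gene. For IDH3A, GOT1 and IDH2 the whole window lay inside it. Their spans begin, in the gene's own direction, at 78131498, 99431569 and 90102504. Windows at other starts were not searched.

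With oxamate added to hypoxia, 22 of the 31 genes were higher than in hypoxia alone, 6 were lower and 3 were not called. Of all genes tested, 35.7% were higher and 44.8% lower, and within the members' abundance range 52.9% were higher and 38.3% lower. The median change of the members was 0.64 beside -0.20 over all genes. In 10 genes the level was at least 2-fold higher and in 0 at least 2-fold lower. Of all 15554 genes, 2226 were called at least 2-fold higher and 4274 at least 2-fold lower. Of the 7430 genes within the members' abundance range, the counts were 1371 and 1105. With library totals alone, which shift the median of all genes by -0.32, the counts were 17 higher and 11 lower. The hypoxia and oxamate libraries enter the other comparisons too, so changes are given side by side and not as independent evidence.

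Of the cycle enzymes 14 of 16 were higher, with a median of 0.88. IDH3A rose by 1.67 ± 0.050 (adjusted p 2.31e-18 in edgeR), back to 96.4 and 97.2 CPM, and CS rose by 1.33 ± 0.031. SDHB stood at 82.2 and 86.1 CPM in normoxia, 76.8 and 74.9 in hypoxia alone, 191 and 181 with oxamate, and 165 and 165 with NALA, and its rise with oxamate was 1.296 ± 0.041. FH (1.153), IDH3B (1.14), MDH2 (1.10), SUCLG1 (1.06), DLST (0.94), SDHD (0.81) and IDH3G (0.68) were also higher, and DLD (0.48), SUCLA2 (0.37), OGDH (0.20) and SUCLG2 (0.15) less so. OGDH and SUCLG2 turned to -0.12 and -0.17 with library totals alone, and SUCLA2 was no longer called (0.045, adjusted p 0.425 in edgeR). SUCLG2 also lost its call with upper quartile scaling (0.08, adjusted p 0.0899 in edgeR). SDHA was the cycle gene called lower (-0.17 ± 0.033), a call lost with DESeq2 (adjusted p 0.0641) and without oxamate replicate 1 or 2 (-0.079 and -0.064). Leaving out either of those libraries also shifted the median of all genes, by 0.096 and 0.097. SDHC was not called (-0.07 ± 0.042), but was called lower with upper quartile scaling and with library totals alone, at -0.13 and -0.39.

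In the shuttle 4 of 6 genes rose with oxamate, and MDH1 and SLC25A13 were not called with TMM scaling. The 2 aminotransferases rose by nearly the same amount, GOT2 by 1.70 ± 0.030 (3.25-fold, adjusted p 3.27e-22 in edgeR) and GOT1 by 1.67 ± 0.045 (3.18-fold). SLC25A11 rose by 0.76 ± 0.051. MDH1 was not called (-0.01 ± 0.037), and its value was 0.09 in a fit of the 2 groups alone and 0.13 without oxamate replicate 2, both called higher. With library totals alone it was called lower, at -0.34 (adjusted p 2.14e-08 in edgeR). SLC25A13 was not called (-0.11 ± 0.074), with oxamate libraries at 16.8 and 18.5 CPM against 19.0 and 19.0 in hypoxia. It was called lower with upper quartile scaling (-0.18, adjusted p 0.0327 in edgeR) and with library totals alone (-0.43, adjusted p 1.48e-05 in edgeR).

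Both NADP-linked isocitrate dehydrogenases and the citrate and dicarboxylate carriers fell with oxamate. IDH2 fell by 0.65 ± 0.040 (adjusted p 1.16e-12 in edgeR) and IDH1 fell by 0.24 ± 0.034. SLC25A1 fell by 0.67 ± 0.056 and SLC25A10 fell by 0.56 ± 0.072. PC was called lower (-0.22 ± 0.077), but the call was lost with DESeq2 (adjusted p 0.318) and without hypoxia replicate 2 or oxamate replicate 1 or 2 (adjusted p 0.0582, 0.0857 and 0.581 in edgeR). MPC1 rose by 1.37 ± 0.096, GLUD1 rose by 0.96 ± 0.031 and ME2 rose by 0.38 ± 0.049, a call lost with library totals alone (0.061, adjusted p 0.249 in edgeR). MPC2 was called higher (0.28 ± 0.053) and stood at -0.04 with library totals alone.

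**Figure D3:**
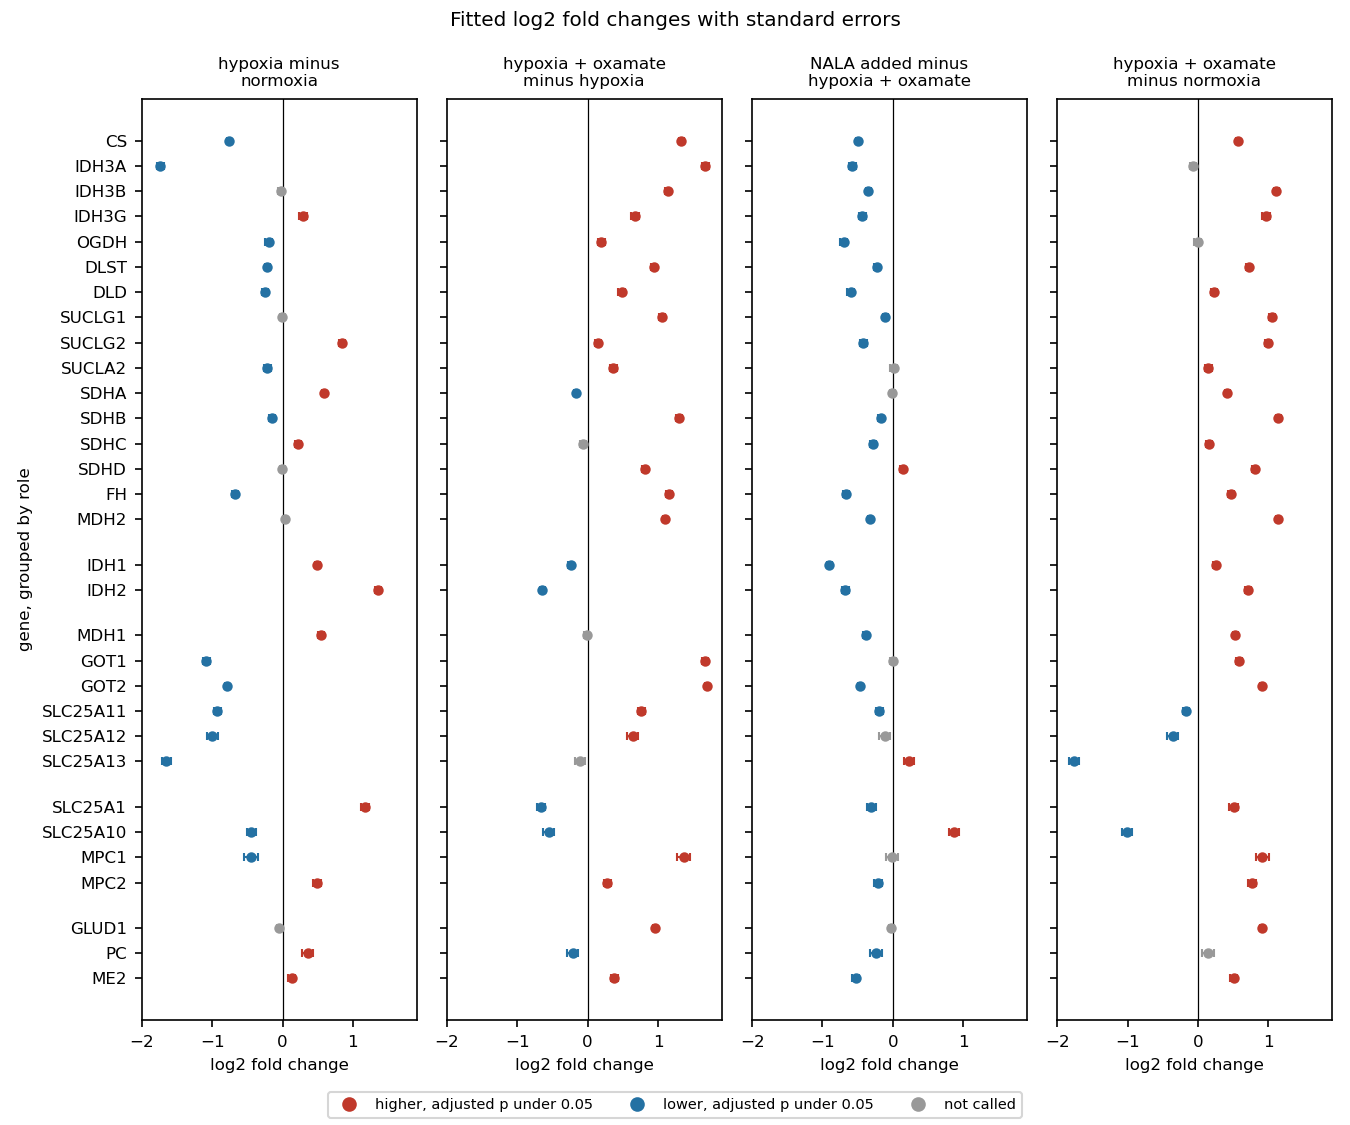
Fitted log2 fold changes (horizontal axes) with standard errors for the 31 genes in the 4 comparisons; red and blue points passed an adjusted p under 0.05 as higher and lower, grey points did not. With oxamate 22 genes lie to the right as called higher, and with NALA 22 lie to the left as called lower.

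With NALA added to hypoxia and oxamate, 22 of the 31 genes were lower, 3 were higher and 6 were not called. Of all genes tested, 31.7% were lower and 33.2% higher, and within the members' abundance range 42.6% were lower and 43.1% higher. The median change of the members was -0.29 beside -0.02 over all genes. No member changed 2-fold, while 2988 of all 15554 genes did, and 1233 of the 7430 within the members' abundance range. Of the cycle enzymes 13 of 16 were lower, with a median of -0.34. OGDH had the lowest fitted change among them: it stood at 87.6 and 87.7 CPM in normoxia, 78.4 and 74.5 in hypoxia alone, 84.3 and 91.0 with oxamate, and 51.7 and 56.0 with NALA. It fell by 0.70 ± 0.052 (adjusted p 6.29e-11 in edgeR). FH fell by 0.67, DLD by 0.60, IDH3A by 0.57, CS by 0.50 and MDH2 by 0.33. SUCLG1 was called at -0.11, a call lost in the fit of the 2 groups alone (adjusted p 0.0521 in edgeR).

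The NADP-linked enzymes fell again, IDH1 by 0.90 ± 0.037 (1.87-fold, adjusted p 2.03e-15 in edgeR) and IDH2 by 0.67 ± 0.044. GOT2 fell by 0.47 ± 0.029 and MDH1 fell by 0.39 ± 0.038, whereas GOT1 (0.01 ± 0.041) was not called. GLUD1 (-0.02 ± 0.030) and MPC1 (-0.01 ± 0.087) were not called either, and both remained near their level with oxamate. GLUD1 was called lower without oxamate replicate 1, oxamate replicate 2 or NALA replicate 2, at -0.13, -0.11 and -0.12. Leaving out those libraries shifted the median of all genes by -0.082, -0.083 and -0.112. SDHA (-0.01 ± 0.034) and SLC25A12 (-0.12 ± 0.081) were not called, but both were called lower without oxamate replicate 2, at -0.11 and -0.29, and SDHA also without NALA replicate 2, at -0.12. With upper quartile scaling, which shifts the median of all genes by -0.19, the counts were 28 lower and 1 higher. SDHA, SLC25A12, MPC1, GLUD1, GOT1 and SUCLA2 were then called lower, at -0.20, -0.31, -0.20, -0.21, -0.18 and -0.18. The stricter count filter also called GOT1, SDHA, SLC25A12 and GLUD1 lower, at -0.11, -0.13, -0.23 and -0.14.

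SLC25A10 was the member with a clear increase, by 0.87 ± 0.072 (1.83-fold, adjusted p 3.77e-10 in edgeR), back towards the normoxia libraries at 32.9 and 35.5 CPM. The other 2 genes called higher were small changes. SDHD stood at 126 and 122 CPM in normoxia, 123 and 123 in hypoxia alone, 218 and 214 with oxamate, and 242 and 235 with NALA (0.14 ± 0.034). Its call was lost with DESeq2 (adjusted p 0.0879) and without oxamate replicate 1, oxamate replicate 2 or NALA replicate 2 (adjusted p 0.255, 0.598 and 0.136 in edgeR). The call of SLC25A13 (0.23 ± 0.076) was lost with DESeq2 (adjusted p 0.168) and without any 1 of the 4 oxamate and NALA libraries, at adjusted p between 0.0589 and 0.536 in edgeR.

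Hypoxia with oxamate was also set against normoxia. Here 24 genes were higher, 4 lower and 3 not called, while 31.9% of all genes were higher and 40.1% lower. Within the members' abundance range 47.9% were higher and 40.1% lower. With library totals alone the counts were 17 and 11, with a shift of -0.39 in the median of all genes. SDHB (1.14 ± 0.040), MDH2 (1.14 ± 0.029) and IDH3B (1.11 ± 0.036) had the largest increases. IDH3B stood at 109 and 106 CPM in normoxia, 108 and 104 in hypoxia alone, 231 and 235 with oxamate, and 181 and 184 with NALA. IDH3A differed from normoxia by -0.07 ± 0.043 (adjusted p 0.152 in edgeR) and OGDH by 0.00 ± 0.048, while OGDH was called at 0.15 without oxamate replicate 1. With library totals alone IDH3A and OGDH were called lower, at -0.46 and -0.39, and SDHA, FH and SLC25A1 were no longer called, at 0.031, 0.086 and 0.12. The genes that stayed below normoxia were the carriers SLC25A13 (-1.76 ± 0.065), SLC25A10 (-1.005 ± 0.069), SLC25A12 (-0.36 ± 0.076) and SLC25A11 (-0.17 ± 0.047). The SLC25A11 call was lost with DESeq2 (adjusted p 0.301) and without oxamate replicate 1 or 2 (adjusted p 0.529 and 0.132 in edgeR), and that of SLC25A12 without oxamate replicate 2 (adjusted p 0.0868 in edgeR), which leaves 2 genes lower. SUCLA2 was called higher (0.15 ± 0.050), but not without normoxia replicate 1 or 2 (adjusted p 0.0754 and 0.0702 in edgeR). PC was not called (0.14 ± 0.079) and was called at 0.30 without oxamate replicate 2.

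Across the 3 steps, 9 genes were called lower in hypoxia, higher with oxamate and lower with NALA. Another 4 were lower, higher and then not called, 4 were higher, higher and lower, and 4 were higher, lower and lower. Only SLC25A10 was lower, lower and higher, and only SLC25A13 was lower, not called and higher. The steps share libraries, so these are counts of the calls above. The same patterns were not counted over all genes, so nothing is read from them about the members as a set.

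Ratios of related genes within a library do not depend on how libraries are scaled. They are log2 ratios of counts, not corrected for length, so they are read across groups and not between the genes. With 2 libraries against 2 no exact test can go below a p of 0.333, and none was run. IDH2 to IDH1 was -1.43 and -1.40 in normoxia, -0.55 and -0.56 in hypoxia alone, -0.98 and -0.94 with oxamate, and -0.78 and -0.69 with NALA. MDH2 to MDH1 was 1.93 and 1.93 in normoxia, 1.44 and 1.41 in hypoxia alone, 2.51 and 2.58 with oxamate, and 2.54 and 2.66 with NALA. The mitochondrial form thus had its largest share of the IDH pair in hypoxia and its smallest share of the MDH pair there.

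SUCLA2 to SUCLG2 averaged 0.22 in normoxia, -0.85 in hypoxia, -0.63 with oxamate and -0.20 with NALA, so the ATP-forming subunit had its smallest share in hypoxia. SLC25A13 to SLC25A12 averaged 0.67, 0.01, -0.73 and -0.39 in the same order, lowest with oxamate. GOT2 to GOT1 ranged from 2.06 with NALA to 2.53 with oxamate, and MPC2 to MPC1 averaged 2.10 in hypoxia and between 0.82 and 1.17 in the other groups. After the values were seen, subunits of 2 complexes were added. IDH3A to IDH3B averaged -0.08 in normoxia, -1.80 in hypoxia, -1.27 with oxamate and -1.49 with NALA, so the share of IDH3A stayed below that of normoxia in all 3 hypoxic groups. SDHB to SDHA averaged -0.65, -1.39, 0.07 and -0.09.

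**Figure D4:**
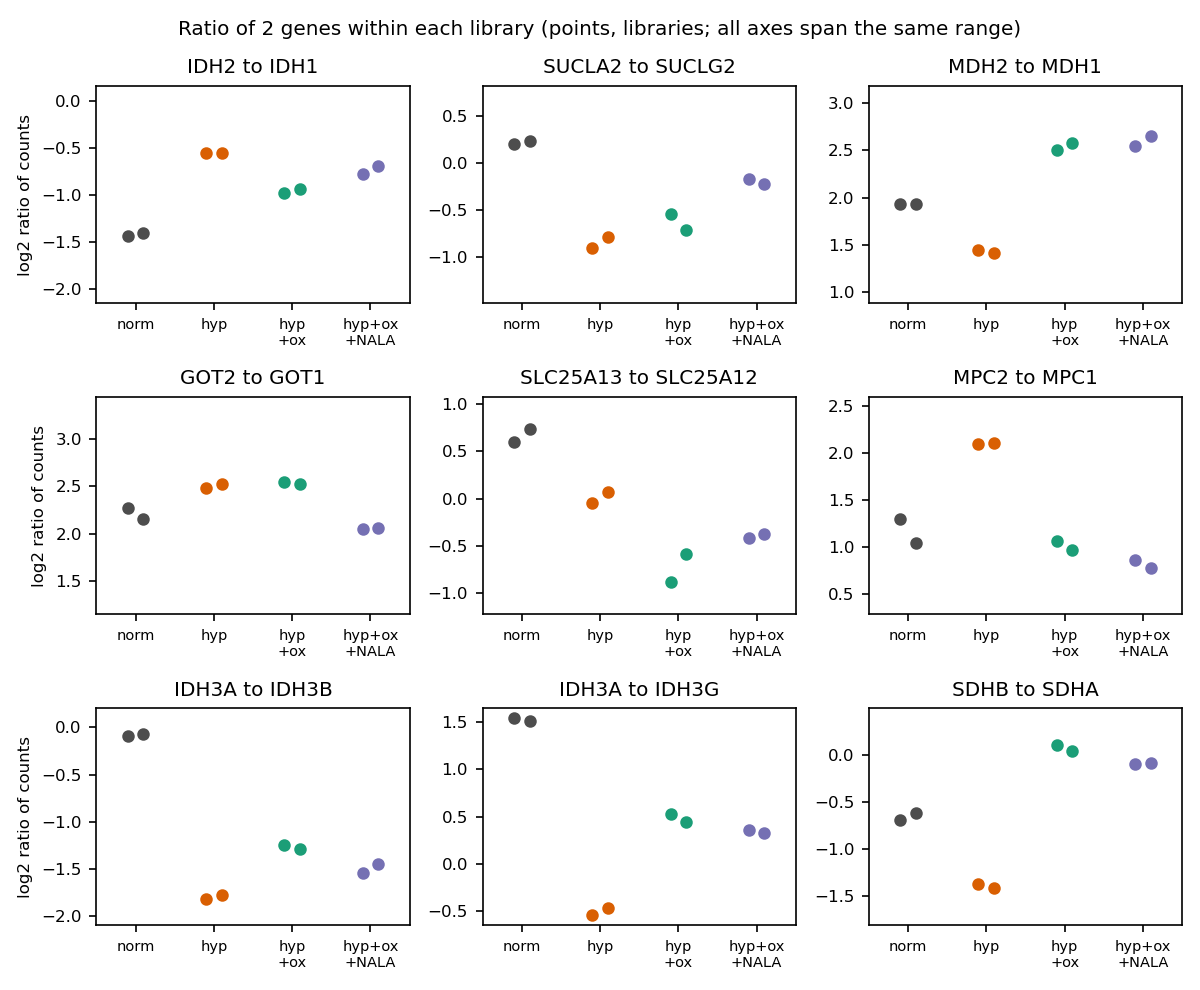
Log2 ratio of the counts of 2 genes in each library (vertical axes, all of the same span), by group. Points are libraries: IDH2 to IDH1 and MPC2 to MPC1 are highest in hypoxia, while MDH2 to MDH1, IDH3A to IDH3B and SDHB to SDHA are lowest there.

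Other genes of the pathway were counted from 3 lists. Of 11 genes for glutamine uptake and glutamate handling, 1 was higher and 5 lower in hypoxia, 3 higher and 3 lower with oxamate, and 2 higher and 5 lower with NALA. The glutamine transporter SLC1A5 fell by 0.97 ± 0.036 in hypoxia, and SLC38A5 rose by 1.38 ± 0.038 with oxamate. SLC38A2, another neutral amino acid transporter, stood at 117 and 112 CPM in normoxia, 153 and 155 in hypoxia alone, 56.4 and 56.8 with oxamate, and 333 and 328 with NALA. It was thus lowest with oxamate and highest with NALA, 5.84-fold apart (2.55 ± 0.039, adjusted p 1.68e-22 in edgeR).

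Of 6 tested genes for other enzymes of citrate, malate and oxaloacetate, 4 were higher and 1 lower in hypoxia, 4 higher and 2 lower with oxamate, and 6 lower with NALA. DHTKD1, an oxoglutarate dehydrogenase-like enzyme of lysine breakdown, rose by 0.88 ± 0.046 in hypoxia and fell by 0.92 ± 0.047 with oxamate. The ATP-citrate lyase gene ACLY fell by 0.29 ± 0.032 in hypoxia. Of 7 genes for succinate dehydrogenase assembly and lipoylation, 2 were higher and 3 lower in hypoxia, 1 higher and 3 lower with oxamate, and 3 higher and 2 lower with NALA (median 0.55). The assembly factor SDHAF4 stood at 1.34 and 1.90 CPM in normoxia, 12.3 and 13.2 in hypoxia alone, 1.74 and 2.19 with oxamate, and 2.44 and 2.73 with NALA, a rise of 2.96 ± 0.169 in hypoxia. SDHAF2, which helps to attach the flavin to SDHA, fell by 1.19 ± 0.082. With oxamate, the lipoyl synthase gene LIAS rose by 0.29 ± 0.070, and LIPT2 had 3 and 7 counts against 72 and 63 in hypoxia (-3.53 ± 0.40).

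The sources used here give no strand setting for the counting, so reads from overlapping genes on opposite strands cannot be told apart. In GENCODE release 29, 17 members overlap an exon of some other gene, and for 9 the partner reached at least 10% of the member's level, on the opposite strand in each case. Among them were IDH3G with SSR4, DLD with LAMB1, SDHD with TIMM8B, SLC25A11 with RNF167, SLC25A12 with METAP1D, GLUD1 with SHLD2, PC with LRFN4 and MPC2 with DCAF6. With oxamate the partner's fitted change had the opposite sign to the member's for DLD (LAMB1 -0.13), GLUD1 (SHLD2 -1.16), PC (LRFN4 0.25), MPC2 (DCAF6 -1.82) and SLC25A12 (METAP1D -0.01). It had the same sign for IDH3G (SSR4 1.34), SDHD (TIMM8B 0.84) and SLC25A11 (RNF167 0.78). In hypoxia against normoxia it had the same sign for SLC25A12 (METAP1D -1.31), MPC2 (DCAF6 0.81), GLUD1 (SHLD2 -1.06), SDHD (TIMM8B -0.56) and SLC25A11 (RNF167 -0.05), and the opposite sign for IDH3G (SSR4 -0.14), DLD (LAMB1 0.66) and PC (LRFN4 -1.16). In hypoxia METAP1D, DCAF6, SHLD2 and TIMM8B thus changed by more than SLC25A12, MPC2, GLUD1 and SDHD, in the same direction. With oxamate SSR4 changed by more than IDH3G, and TIMM8B and RNF167 by slightly more than SDHD and SLC25A11. With NALA the sign was the same for DLD (LAMB1 -0.66), IDH3G (SSR4 -0.37), SLC25A11 (RNF167 -0.60) and SLC25A12 (METAP1D -1.01). For SDHD, GLUD1, PC and MPC2 it was the opposite. The part of the overlap in these results was not tested. IDH3A (chromosome 15, 78131498 to 78171949), GOT2 (chromosome 16, 58707131 to 58734357), SLC25A13 (chromosome 7, 96120220 to 96322147), IDH2 (chromosome 15, 90083045 to 90102504) and SLC25A1 (chromosome 22, 19175575 to 19178830), in GRCh38, had no partner at that level. Counts of the SDHA pseudogene SDHAP1 came to 3.35% of those of SDHA.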

How the data were processed

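The authors deposited 1 table of counts per gene for the 8 libraries; the values are whole numbers with no normalization. The submitters' processing notes list FastQC 0.11.9, STAR 2.7.8a and RSEM 1.3.3, with the build named as hg38 and as GRCh38, so the deposited counts may be rounded RSEM estimates, which split reads between similar copies. The strand setting and annotation release are not given there.

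The analysis used edgeR 4.0.16 under R 4.3.3. The filter was filterByExpr at a minimum count of 10, libraries were scaled by TMM, and a quasi-likelihood model of the 4 groups was fitted to all 8 libraries, leaving 4 residual degrees of freedom. The 4 comparisons were two-sided tests with Benjamini-Hochberg adjustment over the 15554 genes tested, at 0.05, and standard errors were derived from the F statistic. The common biological coefficient of variation was 3.06%. Counts were simulated for the 15554 genes in hypoxia against normoxia. Of 67 genes changed 1.5-fold 64.2% were recovered, of 69 changed 2-fold 73.9% and of 64 changed 4-fold 89.1%, and 11 of 162 calls were false. Far fewer genes were changed than were called in the data, so these rates do not carry over to the comparisons above. Counts of replicate libraries differed by more than sampling noise in every group (chi-square per degree of freedom 1.82 to 4.36), so each library was used as 1 replicate.

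The members, their roles, the 3 lists of other genes and the rule for named genes were chosen with earlier results of these data known. By that rule all 31 members are named, and values in every library are given for the 3 largest increases and 3 largest decreases in each comparison and for 6 related pairs; CS and GLUD1 were added after their values were seen. From each list, the genes with the largest and smallest fitted change in the first 2 comparisons are named. Some genes that this rule or the overlap search would name are not reported here. Exon lengths, positions and overlaps come from GENCODE release 29 (GRCh38), and promoters from RefSeq (GRCh38.p14). The alternatives were DESeq2 1.42.0, other scalings, other count filters, a test against a 1.5-fold change, a replicate block, fits of the 2 groups alone, and leaving out each library; library totals alone were added after the data were seen.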

Additional observations from a re-analysis of the deposited data

How the results depend on the processing

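Tested against a 1.5-fold change, 3 members were higher and 8 lower in hypoxia, and 15 higher and 2 lower with oxamate against hypoxia. With NALA 1 was higher and 4 lower, and with oxamate against normoxia 13 were higher and 2 lower. Over all 15554 genes the counts in the same order were 2885 and 2841, 3291 and 4917, 2710 and 1108, and 2147 and 3654. With library totals alone, 11 members were lower in each of the oxamate comparisons. There OGDH, SUCLG2 and MPC2 turned to -0.12, -0.17 and -0.039 against hypoxia, and DLD, SUCLA2, SDHC, IDH1 and PC to -0.16, -0.24, -0.23, -0.14 and -0.24 against normoxia. With upper quartile scaling the median in hypoxia was 0.059 and SUCLG1 and SDHD stood at 0.10 and 0.10, while with NALA 1 member was higher and SUCLA2, SDHD and GOT1 stood at -0.18, -0.048 and -0.18. The stricter filter of 50 counts in 2 libraries left 1 member higher with NALA and GOT1 at -0.11, and DESeq2 also left 1 higher with NALA. In the fit of the 2 groups alone MDH1 stood at 0.09 with oxamate against hypoxia. The cause of these changes was not tested. Leaving out 1 library gave 1 to 2 members higher with NALA and 2 to 4 lower with oxamate against normoxia, MDH1 between -0.017 and 0.127 with oxamate against hypoxia, and OGDH between -0.01 and 0.15 with oxamate against normoxia. All other counts of members higher or lower stayed within 1.5 times under every alternative run. Leaving out oxamate replicate 1 or 2 shifted the median of all genes by 0.096 and 0.097 against hypoxia and 0.096 and 0.095 against normoxia. With NALA against oxamate the shifts were -0.082 and -0.083, and -0.112 without NALA replicate 2. The calls of SDHA, PC, GLUD1, SDHD, SLC25A11 and OGDH that changed in those refits moved in the direction of the shift. With the replicate block the counts were 11 and 15, 22 and 6, 3 and 22, and 24 and 4, and no member's call changed; same-numbered libraries deviated together at correlations of -0.05 to 0.01, so the numbers show no pairing. With 2 libraries a group and 4 residual degrees of freedom, small differences in PC, MPC1 and SLC25A12, the members with the largest standard errors beside SLC25A10 and SLC25A13, are resolved least.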

Other observations

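Transcripts of the mitochondrial genome, which encode core subunits of the respiratory chain that the TCA cycle feeds, were outside the comparisons above. Genes whose symbol begins with MT- took up 5.75% and 5.73% of counts in normoxia, 4.78% and 4.61% in hypoxia alone, 2.45% and 2.44% with oxamate, and 2.14% and 2.09% with NALA. The share was thus lowest in the 2 groups with oxamate. The 31 members are nuclear genes, and with oxamate against normoxia 24 were called higher and 4 lower. With library totals alone those counts were 17 and 11. The NALA group was not tested against normoxia. In TMM-scaled CPM, MDH2, GOT2 and GLUD1 stood above normoxia in both groups, but other members, such as OGDH, DLD and FH, stood below it with NALA. These shares use library totals and were not tested.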
